A study of Mus musculus with 59 samples.

Results

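Nuclear genes of the mitochondrial respiratory chain were followed in mouse spinal cord and in co-cultured neurons and glia carrying mutant or wild-type SOD1. They were chosen by name: entries whose symbols begin with Nduf (complex I), Uqcr (complex III) or Atp5 (complex V, ATP synthase), the subunits Cox4 to Cox8 of complex IV, Sdha to Sdhd of complex II, and Cyc1 of complex III. Pseudogene names were dropped, and an entry had to reach a value of 1 in at least 2 libraries of its table. This kept 87 of 93 name matches among 36814 spinal cord entries and 87 of 90 among 27262 culture entries, with 83 genes in both tables and 91 in either. Just inside the limit in spinal cord were Ndufa4l2 (2 libraries at 1 or more) and Cox7b2 (4 libraries), and just outside were Atp5g2 and Cox8b (1 library each). In the cultures Atp5l passed with 7 libraries and Cox6a2 with 15. The 87 genes of each table also passed the low-value filter of every model.

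The respiratory chain sits in the inner mitochondrial membrane, where complexes I and II pass electrons through ubiquinone to complex III, and cytochrome c carries them on to complex IV, which reduces oxygen. Complexes I, III and IV pump protons, and complex V uses the return flow to make ATP. Complex II is at the same time succinate dehydrogenase of the tricarboxylic acid cycle, and some complex IV subunits have a second isoform that is best known from lung, muscle, testis or low oxygen. Neurons depend heavily on this pathway, and damaged mitochondria are a known feature of motor neurons in mice with mutant SOD1. The name rule also took genes that are not subunits: the complex I assembly factors Ndufaf1 to Ndufaf4, and Cox4nb, Atp5s, Atp5sl and a Ccdc17 entry that carries Cox7b as an alias.

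The cord samples were 16 libraries, 1 female and 1 male of SOD1_G93A and of wild-type mice at each of 4, 8, 12 and 17 weeks. SOD1_G93A is a mutant form of human SOD1 that causes a motor neuron disease when mice carry it as a transgene, and here it is compared with animals without it. The cultures were sandwich co-cultures of glia and neurons, either of which was SOD1_G93A mutant or wild type, and the RNA of one partner was read at day 3, 7 or 14. There were 23 glial libraries in 12 groups and 20 neuronal libraries in 12 groups, with at most 2 libraries a group. A single library stood for 5 groups: at day 3 the normal glia beside mutant neurons and the neurons of the fully wild-type pairing, and on all 3 days the mutant neurons beside normal glia. The labels do not say from which tissue or cells the neurons and glia were prepared, nor whether replicates were separate cultures, so a p-value here reflects library-to-library spread alone, which may be technical. Both an Illumina standard and a Nextera kit were used for library preparation, and which one served each library is not given.

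Reads on genes per library ranged from 9.71 to 49.1 M in spinal cord (median 31.7 M), from 3.13 to 21.98 M in glia (median 15.9 M) and from 6.37 to 29.3 M in neurons (median 12.4 M). All values below are per gene length and library (the RPKM scale), rescaled by median-of-ratios factors of 0.65 to 1.12 in spinal cord and 0.812 to 2.23 in the cultures. The human transgene was not analysed here, and mouse Sod1 overlapped between genotypes in spinal cord (64.0 to 114 in mutant and 70.2 to 191 in wild-type libraries). The summed level of 12 neuronal marker genes was 815 to 10841 in the neuronal libraries and 72.2 to 304 in the glial ones. In bulk RNA, fewer cells of a type and less RNA per cell cannot be told apart.

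Promoters of these genes are known to be bound by nuclear respiratory factor 1 (NRF1), GABPA (also called NRF-2), YY1 and ERR alpha, and the RefSeq promoter table (GRCm38.p6, 250 bases before to 50 after each start) was searched for one core of each on both strands: the palindrome of GCGCA joined to TGCGC for NRF1, CCGGAAG or CTTCCGG for GABPA, AAGATGGCG or CGCCATCTT for YY1, and AAGGTCA or TGACCTT for ERR alpha. Of 89 genes looked for, 73 were found, with 79 promoters among 32851. The NRF1 core was in 6 of the 79 (7.59%, against 0.971% of all promoters), the GABPA core in 17 (21.5% against 8.86%), the YY1 core in 9 (11.4% against 1.4%) and the ERR alpha core in 8 (10.1% against 4.72%). Any of the 4 was present in 33 of 79 promoters (41.8%, against 15.1% of all). A match describes the letters only and shows no binding. The sequences below belong to 5 genes that were lower and 1 that was higher in neurons at day 14 than at day 3, the 5 being chosen among those that hold a core. They are read 5′ to 3′ on the gene's strand with the matched cores in capitals. They are Atp5k (chr5:108434350-108434649, minus strand), Cox6a1 (chr5:115348909-115349208, minus), Atp5j2 (chr5:145191492-145191791, minus), Ndufb6 (chr4:40279372-40279671, minus), Ndufb2 (chr6:39592315-39592614, plus) and Cox6b2 (chr7:4753045-4753344, minus). Cox6b2, the higher one, holds none of the 4.
Atp5k: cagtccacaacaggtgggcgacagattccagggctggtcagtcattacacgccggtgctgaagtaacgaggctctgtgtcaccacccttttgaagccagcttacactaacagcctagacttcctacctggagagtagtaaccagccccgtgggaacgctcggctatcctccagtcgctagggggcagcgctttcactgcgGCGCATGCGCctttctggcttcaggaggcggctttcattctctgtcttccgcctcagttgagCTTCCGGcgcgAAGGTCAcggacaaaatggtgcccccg
Cox6a1: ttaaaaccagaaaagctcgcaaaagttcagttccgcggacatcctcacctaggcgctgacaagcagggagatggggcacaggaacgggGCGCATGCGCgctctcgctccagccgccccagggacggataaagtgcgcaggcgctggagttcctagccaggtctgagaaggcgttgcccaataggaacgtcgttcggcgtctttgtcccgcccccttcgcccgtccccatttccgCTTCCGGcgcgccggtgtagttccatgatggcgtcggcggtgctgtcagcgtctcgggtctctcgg
Atp5j2: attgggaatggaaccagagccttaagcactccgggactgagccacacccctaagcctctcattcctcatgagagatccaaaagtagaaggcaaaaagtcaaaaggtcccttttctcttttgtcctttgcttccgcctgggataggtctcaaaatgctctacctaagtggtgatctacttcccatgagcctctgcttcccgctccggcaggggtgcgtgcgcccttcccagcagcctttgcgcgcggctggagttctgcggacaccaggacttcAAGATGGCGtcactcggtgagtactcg
Ndufb6: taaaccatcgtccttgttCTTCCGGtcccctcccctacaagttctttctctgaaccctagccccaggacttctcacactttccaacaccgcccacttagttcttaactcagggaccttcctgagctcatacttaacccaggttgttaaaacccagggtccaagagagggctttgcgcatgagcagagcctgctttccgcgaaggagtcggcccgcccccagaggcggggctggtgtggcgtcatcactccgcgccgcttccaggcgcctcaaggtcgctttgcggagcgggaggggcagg
Ndufb2: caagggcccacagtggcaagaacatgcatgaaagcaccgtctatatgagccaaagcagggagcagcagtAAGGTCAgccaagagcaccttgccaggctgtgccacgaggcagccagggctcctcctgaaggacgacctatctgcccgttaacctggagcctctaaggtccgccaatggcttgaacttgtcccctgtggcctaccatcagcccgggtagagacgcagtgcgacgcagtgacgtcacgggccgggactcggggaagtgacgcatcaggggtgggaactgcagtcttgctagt
Cox6b2: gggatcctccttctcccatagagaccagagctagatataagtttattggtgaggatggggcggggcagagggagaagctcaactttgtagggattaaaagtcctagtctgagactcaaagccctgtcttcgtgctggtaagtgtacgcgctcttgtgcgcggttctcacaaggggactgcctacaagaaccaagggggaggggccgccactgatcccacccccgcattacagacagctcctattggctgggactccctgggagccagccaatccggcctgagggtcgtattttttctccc
Atp5k carries 3 of the 4 cores. Among genes with a promoter in the table, 15 of 35 that fell in neurons between day 3 and day 14 held a core and the other 20 held none, and a core was in 15 of 31 that were not called and 0 of 3 that rose. Of the 5 lower genes shown, Atp5j2 alone kept its call when the day 3 libraries numbered 1 were left out, a set described further on.

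Respiratory chain genes were among the most abundant transcripts in all 3 sample kinds. The median level of the 87 genes was 33.3 in spinal cord, against 5.34 for all genes tested, 68.7 in glia against 7.84, and 70.7 in neurons against 7.56. These medians lie at the 92nd, 94.6th and 95.7th percentile of genes, respectively. The highest were Cox6b1 (311), Cox4i1 (291), Cox6a1 (278) and Atp5b (261) in spinal cord, Atp5b (431), Cox6a1 (362), Cox4i1 (327) and Cox8a (321) in glia, and Atp5b (466), Cox6a1 (354), Cox4i1 (351) and Cox6b1 (346) in neurons. Atp5b encodes the catalytic beta subunit of ATP synthase, and Cox4i1, Cox6a1, Cox6b1 and Cox8a encode common isoforms of complex IV subunits. At the low end were second isoforms such as Cox7b2 (0.457) and Ndufa4l2 (0.709) in spinal cord and Cox6a2, the heart and muscle form (1.05 in glia and 0.676 in neurons). Low values of Atp5l, which encodes a common subunit yet stood at 0.219 in glia and 0.380 in neurons, are uncertain. Reads can be lost or split among near-identical copies of a gene, and the part of this in any value was not tested. The values of Atp5g2, Ndufab1, Ndufs5 and Cox7c are uncertain likewise. Atp5e was low in spinal cord alone (5.91, against 256 in glia and 274 in neurons). Atp5g1 was low in all 3 kinds (1.54 in glia, 4.59 in neurons and 2.39 in spinal cord).

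Glial libraries that share a number within a day stood apart as a set at days 3 and 7, and neuronal ones at day 3. Most respiratory chain genes moved with that number. In glia the number 1 libraries of day 3 exceeded the number 2 libraries by a median log2 difference of 0.72 over the 87 genes (80 positive), and those of day 7 by 0.73 (82 positive). Over all genes the medians were -0.02 and -0.03. At day 14 the difference was -0.03, with 46 of 87 genes negative. In neurons the same difference was 0.39 at day 3 (68 positive), 0.15 at day 7 (62 positive) and 0.03 at day 14. At day 7 the medians of single neuronal libraries, relative to each gene's mean, overlapped between numbers. They ran from -0.32 to 0.38 in number 1 and from -0.39 to 0.01 in number 2. The numbers carry no meaning in the labels.

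**Figure D1:**
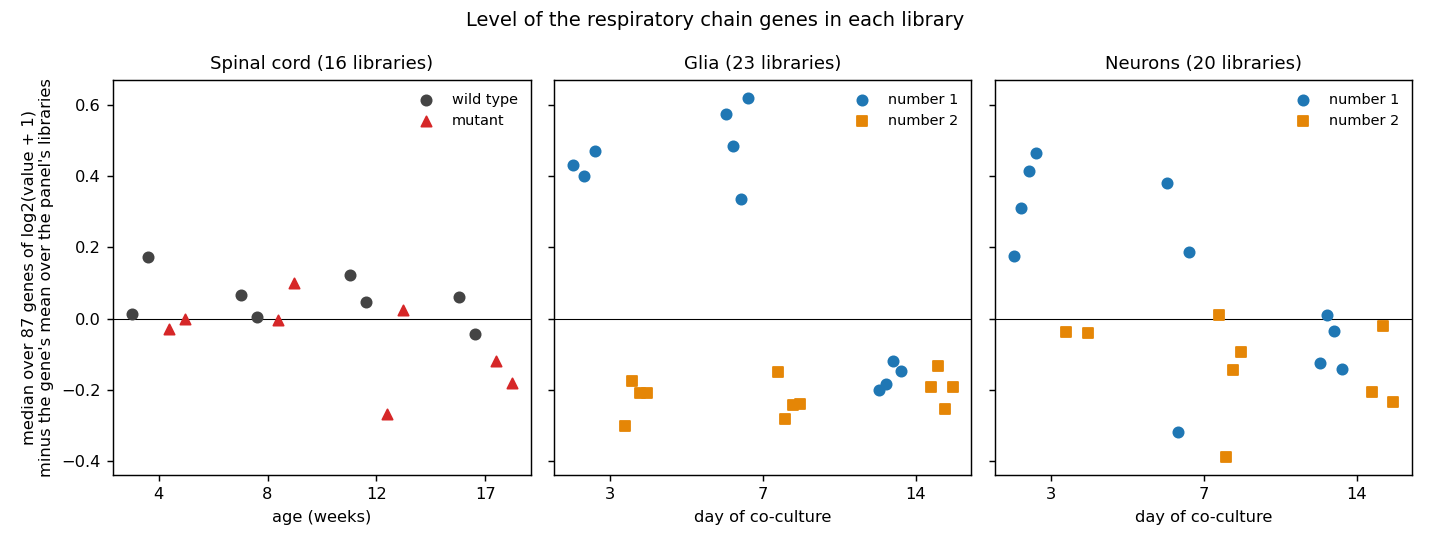
Median over the 87 genes of each library's log2(value + 1) minus the gene's mean over the panel's libraries, for spinal cord by age (black circles wild type, red triangles mutant) and for glia and neurons by day (blue circles number 1, orange squares number 2). Glial number 1 libraries at days 3 and 7 lie between 0.34 and 0.62 and number 2 libraries between -0.30 and -0.15, while at day 14 both lie between -0.25 and -0.12.

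The glial split was wide enough that many of these genes did not overlap between the numbers. Over days 3 and 7, 50 of the 87 genes were higher in each of the 7 number 1 libraries than in each of the 8 number 2 libraries, where 6.39% of all genes were, and 1 gene, Ndufa10, was lower in each, where 5.81% of all genes were. Ndufa1, a small accessory subunit that complex I needs for its assembly, ranged from 271 to 515 (median 320) in number 1 and from 85.0 to 121 (median 94.3) in number 2. Cox6b1 ranged from 595 to 1278 (median 634) against 273 to 288 (median 278). Atp5k, the e subunit of ATP synthase, ranged from 206 to 484 (median 350) against 88.4 to 124 (median 97.7). The sets did not overlap for these 3 genes. By contrast Ndufv1, the flavoprotein that takes electrons from NADH, had 53.3 to 79.1 (median 70.1) and 55.6 to 71.3 (median 62.8), which overlap. In neurons 4 genes were higher without overlap at days 3 and 7 (Cox5b, Cox6c, Cox7a1 and Ndufb4, with 1.62% of all genes doing so), and Ndufs1 was lower (2.75% of all genes).

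Gene length moved with this split. The 83 genes with a deposited length had a median of 1231 bases, against 3753 for glial genes with a length (80.2% of them). In glia at day 3 the median difference between numbers was 0.99 for the 34 respiratory chain genes of at most 1000 bases, each of them positive, and 0.51 for the 49 longer ones (43 positive). At day 7 it was 1.04 and 0.62. For all genes of at most 1000 bases the glial medians were 0.58 and 0.55 at days 3 and 7, for genes over 2000 bases -0.09 and -0.08, and for cytosolic ribosomal protein genes 0.26 and 0.45. In neurons at day 3 they were 0.49, -0.04 and 0.21, respectively. The part of length, kit or culture in the split was not tested. Comparisons over days below are therefore given with and without the day 3 number 1 libraries.

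In neurons, genes of complexes I, IV and V made up most of the respiratory chain genes that fell between day 3 and day 14, and 3 of 6 second isoforms of complex IV rose. Of the 87 genes 38 fell and 7 rose (limma, Benjamini-Hochberg adjusted p under 0.05), which is 45 of 87, where 63% of all genes were called, 29.3% higher and 33.7% lower. The share called was thus not above that of other genes. With all libraries the lean was to lower values: the median log2 change of the 87 was -0.36, against -0.05 for all genes. Without the 4 day 3 number 1 libraries these 2 medians were -0.07 and -0.05. Within number 2 alone they were -0.09 and -0.06, so the lean rested mostly on the day 3 number 1 libraries. From day 3 to day 14, 6 of the 87 genes rose without overlap between the days, where 20.5% of all genes did. In the lower direction it was 18 genes, where 23% of all genes were. Voom on the recovered reads called 42 (10 higher, 32 lower). Without rescaling, 48 fell and 4 rose, with the median of all genes at -0.43, and 42 calls were the same in both. Without the 4 day 3 number 1 libraries, which leaves only the 2 pairings with mutant glia at day 3, 8 fell and 8 rose with a median of -0.07. Of the 45 calls 13 remained, 5 higher and 8 lower, and 34 of the 38 lower genes still had a negative change. The 8 lower genes were Ndufa5, Ndufa8, Ndufb8, Ndufv2, Cox5a, Atp5f1, Atp5g1 and Atp5j2.

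**Figure D2:**
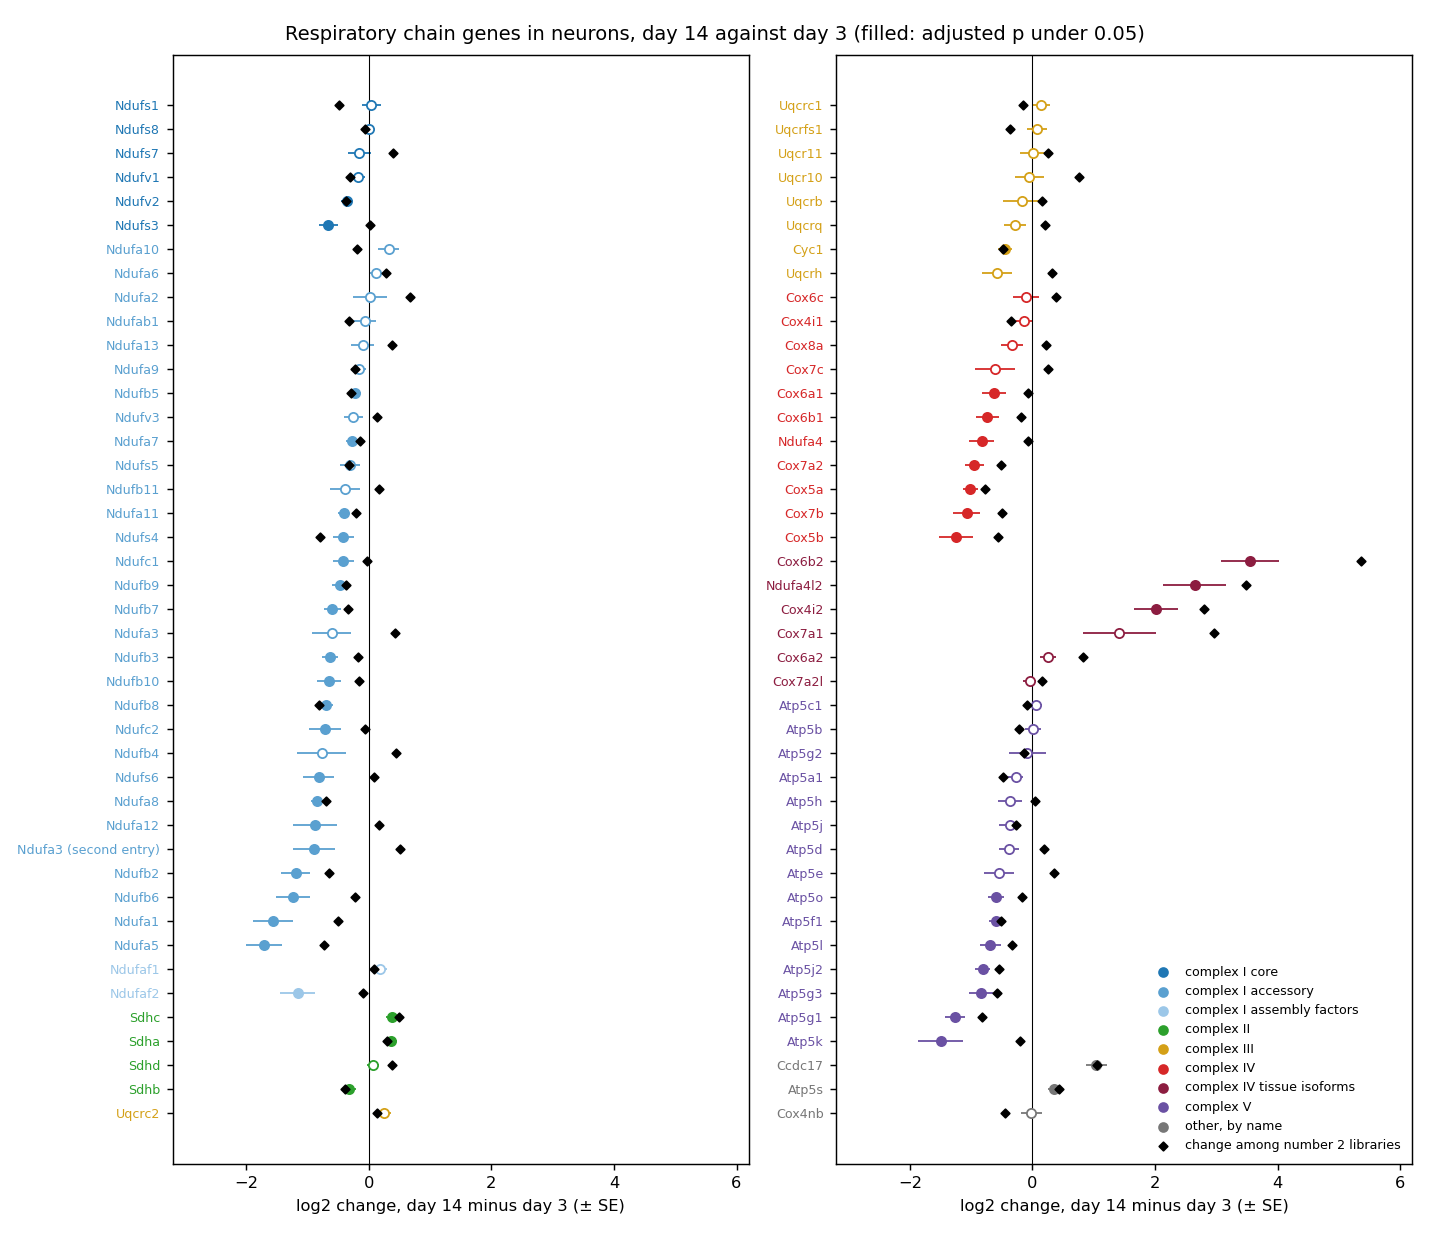
Log2 change of respiratory chain genes in neurons from day 3 to day 14 (circles, with the standard error as a bar, filled where the adjusted p was under 0.05), coloured by complex, with black diamonds for the mean change in the 2 pairings of number 2 libraries. Genes of complex IV lie mostly left of 0, down to -1.25 for Cox5b, while Cox6b2 at 3.54, Ndufa4l2 at 2.64 and Cox4i2 at 2.02 lie far to the right.

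Among complex I genes, 19 of 30 accessory subunits and 2 of 7 core subunits fell, and none rose. Ndufa8, an accessory subunit of the proton-pumping arm, was at 128 to 171 (median 148) in the 6 libraries of day 3, at 88.8 to 131 (median 105) in the 7 of day 7 and at 72.7 to 96.6 (median 80.0) in the 7 of day 14. Days 3 and 14 did not overlap, and its log2 change was -0.85 (SE 0.10, limma, Benjamini-Hochberg adjusted p = 1.95e-05). Ndufa5, a subunit of the arm that faces the matrix, fell by 1.71 on the log2 scale, from a median of 229 (88.5 to 275) to 60.3 (51.4 to 63.6). Ndufa1 fell by 1.56, from a median of 232 (119 to 376) to 74.2 (69.4 to 93.2). Both ranges are wide at day 3, where the number 1 libraries were the higher ones. Without those libraries Ndufa5 kept its call (-0.79, adjusted p = 0.0462 by the same limma test) and Ndufa1 lost it (-0.61, adjusted p = 0.183). The calls of Ndufb2 (-1.19 with all libraries, -0.53 without these, adjusted p = 0.128 in limma) and Ndufb6 (-1.23 and -0.35, adjusted p = 0.381) were lost too. Of the core subunits Ndufs3 fell by 0.66 (-0.09 without the day 3 number 1 libraries, not called) and Ndufv2 by 0.36 (-0.35 without them, still called). Ndufs1, the largest iron-sulfur protein of the complex, was at 18.7 to 32.0 (median 22.5) at day 3 and at 20.6 to 26.6 (median 22.5) at day 14, which overlap. Of the assembly factors Ndufaf2 fell by 1.16 (-0.20 without the day 3 number 1 libraries, not called), and Ndufaf1 was not called (0.19).

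In complex II 2 of 4 genes rose, Sdhc and Sdha, and Sdhb fell. Sdhc, a membrane anchor that binds ubiquinone, rose from 85.2 to 106 (median 94.1) at day 3 to 113 to 131 (median 120) at day 14, with no overlap (log2 0.37, SE 0.10, limma, Benjamini-Hochberg adjusted p = 0.00522), and was still called without the day 3 number 1 libraries (0.41, adjusted p = 0.0317). Sdha, the flavoprotein that oxidises succinate, was at 76.4 to 84.0 (median 78.4) and at 85.3 to 113 (median 106), again without overlap (0.35, adjusted p = 0.01004). Without rescaling the change of Sdha was -0.10 (adjusted p = 0.743 in limma), and without the day 3 number 1 libraries it was 0.39 with an adjusted p of 0.0550. Sdhb, the iron-sulfur subunit, fell from 125 to 160 (median 136) to 95.9 to 123 (median 110), a log2 change of -0.32 (adjusted p = 0.0252). Sdhb was not called without the day 3 number 1 libraries (-0.26, adjusted p = 0.217). Leaving out the wild-type neurons with wild-type glia of day 3 alone took its call away (-0.22, adjusted p = 0.148), as did leaving out number 2 at day 14 of mutant neurons with mutant glia (-0.28, adjusted p = 0.0535) or of wild-type neurons with mutant glia (-0.29, adjusted p = 0.0562). Sdhd, the other anchor, was not called (0.07).

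In complex III, 1 of 9 genes fell: Cyc1, the haem protein that hands electrons to cytochrome c, went from 67.3 to 93.2 (median 75.6) to 42.5 to 70.4 (median 53.3), a log2 change of -0.45 whose 2 ranges overlap. It was not called without the day 3 number 1 libraries (-0.35, limma, Benjamini-Hochberg adjusted p = 0.0640). In complex IV, 7 of 11 common subunits fell, with Ndufa4 counted here and not in complex I. Cox5a, a subunit on the matrix side of the complex, was at 184 to 341 (median 221) at day 3, 132 to 224 (median 197) at day 7 and 111 to 135 (median 115) at day 14. Its log2 change was -1.01 (SE 0.13, limma, Benjamini-Hochberg adjusted p = 3.2e-05), with days 3 and 14 apart, and -0.84 without the day 3 number 1 libraries (adjusted p = 0.00311). Cox5b fell by 1.25, from a median of 103 (49.5 to 122) to 35.8 (32.1 to 42.0). Its change was -0.55 and no longer called without the day 3 number 1 libraries (adjusted p = 0.179 in limma), and that of Cox6a1 went from -0.63 to -0.06 (adjusted p = 0.855). Cox4i1, the common form of the largest nuclear subunit, was at 349 to 439 (median 378) and at 290 to 411 (median 344), which overlap (-0.13, not called).

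Of 15 complex V genes 7 fell. Atp5g1, one of several genes for the c subunit of the rotor, was at 4.64 to 9.86 (median 7.45) at day 3 and at 1.93 to 3.39 (median 2.64) at day 14, without overlap. Its log2 change was -1.27 (SE 0.16, limma, Benjamini-Hochberg adjusted p = 3.72e-05). Atp5j2, the f subunit of the membrane part, went from 36.4 to 58.4 (median 38.6) to 21.1 to 27.0 (median 24.5), also without overlap (-0.81). Both kept their calls without the day 3 number 1 libraries (-0.88 and -0.60). Atp5k fell by 1.495, from a median of 291 (118 to 404) to 91.6 (75.3 to 119), which is -0.41 and no longer called without the day 3 number 1 libraries (limma, Benjamini-Hochberg adjusted p = 0.454). The beta subunit Atp5b was at 418 to 543 (median 448) and at 362 to 510 (median 463), and the ranges overlap (0.01, not called).

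Of the 6 genes counted as second isoforms of complex IV (Cox4i2, Cox6a2, Cox6b2, Cox7a1, Cox7a2l and Ndufa4l2), 3 rose and none fell. Cox6b2, known as the testis form of Cox6b, was at 2.87 to 18.5 (median 17.1) at day 3, 10.97 to 74.8 (median 46.8) at day 7 and 113 to 218 (median 152) at day 14, a log2 change of 3.54 (SE 0.47, limma, Benjamini-Hochberg adjusted p = 5.48e-05). Its gene lies on chromosome 7 from 4703396 to 4704697 (minus strand, mm9) and overlaps no other gene in the RefSeq table. The lowest day 14 library was above the highest of day 7. Cox4i2, known from lung and for its response to low oxygen, was at 0.460 to 3.27 (median 2.13), 0.834 to 7.15 (median 2.73) and 7.67 to 17.0 (median 10.4) on the same days, a change of 2.02 (SE 0.36). Ndufa4l2, a low-oxygen relative of Ndufa4, was at 0.469 to 5.34 (median 2.69), 0.637 to 8.91 (median 3.22) and 9.15 to 53.4 (median 20.8), a change of 2.64 (SE 0.51). For each of these 3 genes the day 14 libraries were above those of both earlier days. Without the day 3 number 1 libraries Cox6b2 had a change of 5.13, and all 3 kept their calls. Cox7a1, the muscle form of Cox7a, was not called with every library (1.42, adjusted p = 0.0543 in limma) and rose by 3.13 without those libraries (adjusted p = 0.00249). Cox6a2 likewise went from 0.26, not called, to 0.71 (adjusted p = 0.0194), and Cox7a2l was at -0.04, not called. The span of Cox4i2 overlaps Bcl2l1 in the annotation and that of Ndufa4l2 overlaps Shmt2, and the sources used here do not say whether reads were counted by strand.

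**Figure D3:**
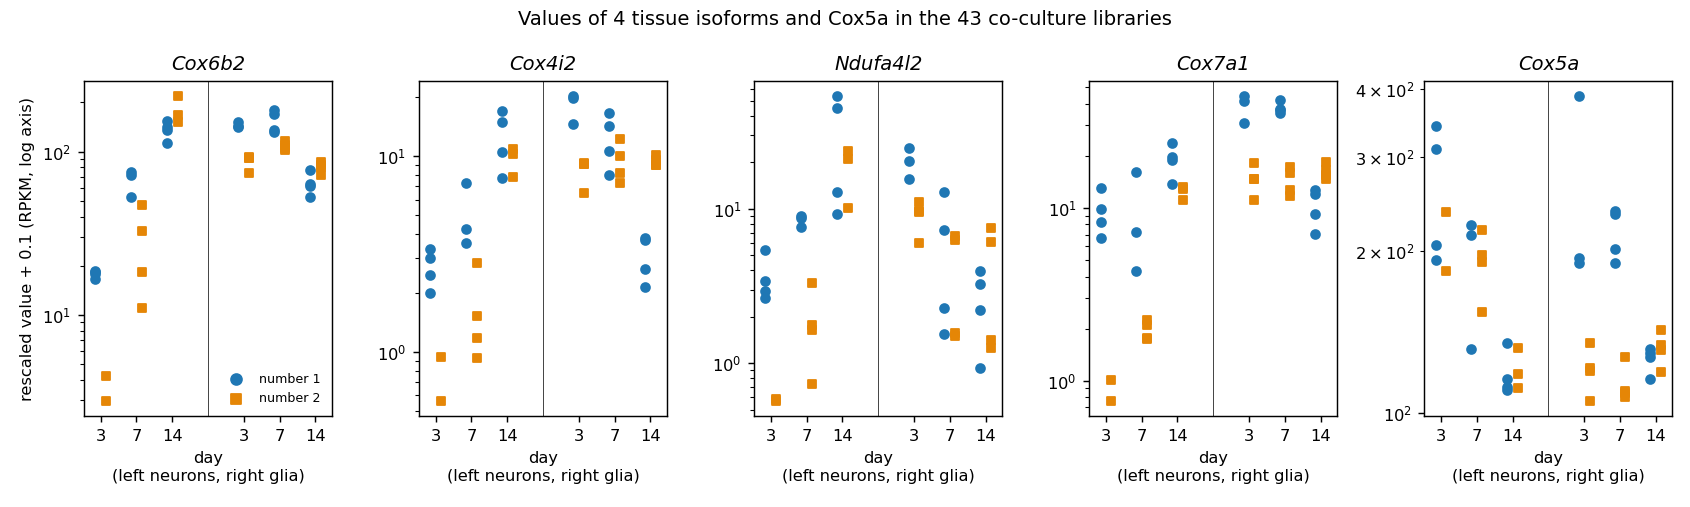
Rescaled value + 0.1 on a log axis for Cox6b2, Cox4i2, Ndufa4l2, Cox7a1 and Cox5a in each of the 43 culture libraries, by day, with neurons left and glia right of the line in each panel (blue circles number 1, orange squares number 2). Neuronal Cox6b2 climbs to 113 to 218 at day 14, above the 52.7 to 86.4 of glia on that day, while Cox5a falls to 111 to 135.

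Other genes of mitochondrial energy metabolism went both ways, beside the 29.3% of all genes that rose and the 33.7% that fell. Of 18 genes of the tricarboxylic acid cycle and pyruvate entry, 8 rose and 2 fell in neurons by day 14, led by Idh2 (mitochondrial isocitrate dehydrogenase, 2.57) and Pcx (pyruvate carboxylase, 1.69). Of 14 electron carrier genes, 7 rose and 3 fell, with Etfa, which feeds electrons from fatty acid oxidation, at 1.17. Of 8 mitochondrial antioxidant genes, 6 rose and 1 fell, and Nnt, which supplies mitochondrial NADPH, rose by 0.95. Of 47 mitochondrial ribosomal protein genes 6 rose and 17 fell, and of 27 assembly factors outside the name rule 5 rose and 10 fell, so the lower share of both lists was near that of all genes. Atpif1, the inhibitor of ATP synthase, fell by 1.28. Among 13 regulators of mitochondrial genes 4 rose and 2 fell, with Ppargc1a, a coactivator of mitochondrial biogenesis, at 0.90 and Gabpa at 0.62. The median changes of these lists ranged from -0.19 for mitochondrial ribosomal proteins to 0.46 for antioxidant genes.

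Markers of cell types moved with the day in the same libraries. The 12 neuronal markers had a summed level of 5739 to 10841 at day 3 and 815 to 1600 at day 14, with 11 of 12 lower and none at 0. The 8 motor neuron markers summed to 1123 to 1769 and 119 to 276 (7 lower, 1 higher). Astrocyte markers went from 127 to 281 to 524 to 849 (9 of 11 higher), where glial libraries of all days had 884 to 1986. Fibroblast markers went from 10.5 to 58.4 to 66.0 to 131 (5 of 6 higher), and stem cell markers from 2.40 to 164 to 0.512 to 6.13 (6 of 6 lower). Their part in the changes of the respiratory chain genes was not tested. For Cox6b2 the day 14 neuronal libraries (113 to 218) were above each of the day 14 glial libraries (52.7 to 86.4).

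In glia few of these genes were called over the same interval. Sdha rose and Ndufa4l2 fell from day 3 to day 14, that is 2 of 87, where 12% of all genes were called (3.8% higher and 8.21% lower). Sdha was at 97.6 to 126 (median 106) in the 7 libraries of day 3, at 140 to 170 (median 152) in the 8 of day 7 and at 132 to 153 (median 148) in the 8 of day 14, a log2 change of 0.39 (SE 0.09, limma, Benjamini-Hochberg adjusted p = 0.0102). Without rescaling the Sdha change was 0.01 (adjusted p = 0.970), the median of all genes being -0.33. Ndufa4l2 was at 5.90 to 24.8 (median 10.99) at day 3 and at 0.826 to 7.43 (median 2.64) at day 14, a change of -1.83 (SE 0.35, adjusted p = 0.00400), with ranges that overlap, and without the day 3 number 1 libraries its adjusted p was 0.0673. Atp5a1 and Sdha were among the genes higher at day 14 in every library without overlap, where 1.79% of all genes were, and no gene of the 87 was lower without overlap (3.48% of all genes). Voom called 5 of the 87 (4 higher, 1 lower), and leaving out number 2 of wild-type glia with wild-type neurons at day 3 also gave 5. Within number 1 the median change of the 87 genes was -0.64 (76 negative), and that of all genes of at most 1000 bases was -0.68. Within number 2 they were 0.07 (55 positive) and -0.04. The model pooled both numbers without a term for them, so few calls do not show that few genes changed.

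The change over time differed between neurons and glia for 12 of the 87 genes when the difference itself was tested, 5 in the higher and 7 in the lower direction, where 53.5% of all genes differed (26.7% higher and 26.8% lower). This comparison was added after the data had been seen. The largest of the 12 differences were those of Ndufa4l2 (4.48, SE 0.64) and Cox6b2 (4.12, SE 0.51), whose changes were positive in neurons and negative in glia (-1.83 for Ndufa4l2 and -0.58 for Cox6b2, the latter not called). Cox6b2 in glia was at 74.1 to 152 (median 92.4) at day 3 and at 52.7 to 86.4 (median 74.4) at day 14. Without the day 3 number 1 libraries 7 genes were called (5 higher, 2 lower), and without rescaling 5 (4 higher, 1 lower).

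Averaged over pairings and days, single subunits differed between neurons and glia in both directions, at shares below those of all genes in this model. Of the 87 genes 12 were higher and 20 lower in neurons, where 78.4% of all genes were called (39.9% higher and 38.6% lower), and the median log2 difference was 0.00 against 0.02 for all genes. With the replicate number as a block within each day the counts were 17 higher and 35 lower, and without rescaling they were 3 and 9. No gene of the 87 separated all 20 neuronal from all 23 glial libraries, while 5.91% of all genes did so in the higher and 4.02% in the lower direction.

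**Figure D4:**
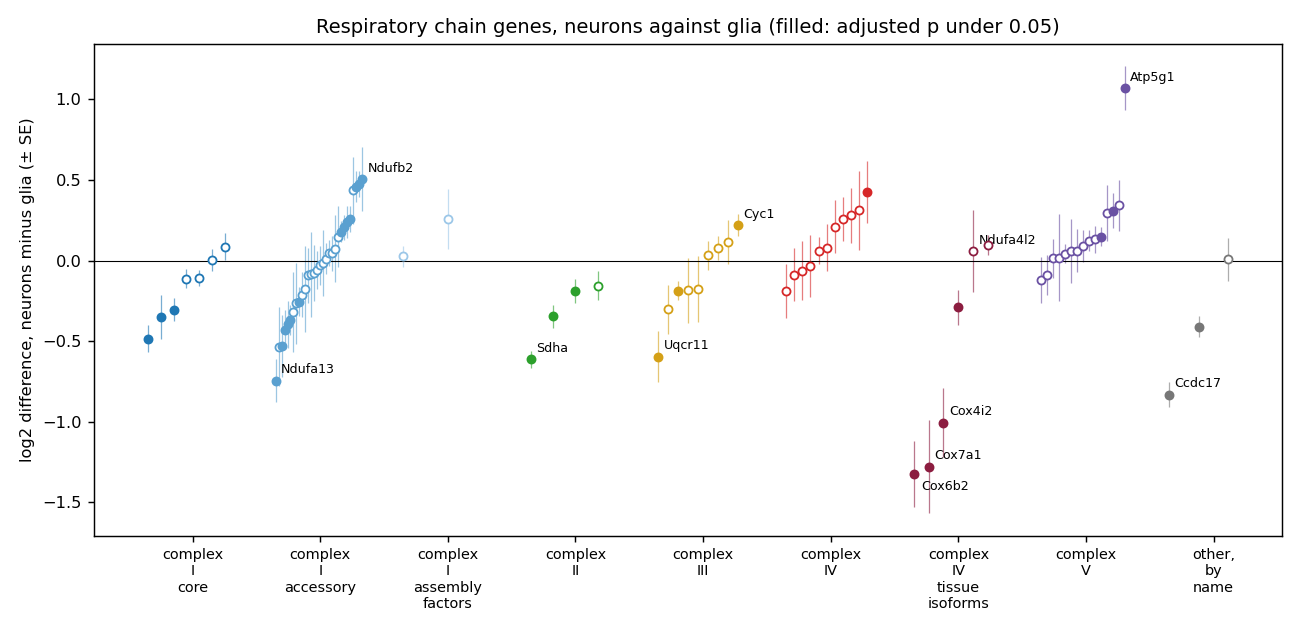
Log2 difference between neurons and glia (circles, with the standard error as a bar, filled where the adjusted p was under 0.05) for the 87 genes, in order within each complex. Atp5g1 stands highest at 1.07, and the second isoforms Cox6b2 (-1.32), Cox7a1 (-1.28) and Cox4i2 (-1.01) stand lowest.

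In complex II, 3 of 4 genes were lower in neurons. Sdha was at 76.4 to 113 (median 84.6) in neurons and at 97.6 to 170 (median 146) in glia, a log2 difference of -0.61 (SE 0.05, limma, Benjamini-Hochberg adjusted p = 1.07e-10). At day 3 its neuronal libraries (76.4 to 84.0) all lay below the glial ones (97.6 to 126), and likewise at day 14 (85.3 to 113 against 132 to 153). Sdhc and Sdhb differed by -0.34 and -0.19. In complex V the difference had the other sign for Atp5g1, at 1.93 to 9.86 (median 4.59) in neurons and 0.963 to 4.99 (median 1.54) in glia (1.07, SE 0.13, adjusted p = 1.35e-07 by the same test). Of the 3 complex V genes called, Atp5g1, Atp5o (0.31) and Atp5a1 (0.15), each was higher in neurons. Complex I was mixed, with 7 accessory subunits higher, among them Ndufb2 (0.51) and Ndufb8 (0.48), and 6 lower, among them Ndufa13 (-0.74), while 3 of 7 core subunits were lower, Ndufs7 (-0.48), Ndufs3 (-0.35) and Ndufs8 (-0.30). In complex III Cyc1 was higher (0.22) and Uqcr11 (-0.60) and Uqcrc2 (-0.19) lower. Without the day 3 number 1 libraries the calls of Sdhb (-0.16, limma adjusted p = 0.0654), Cyc1 (0.16, adjusted p = 0.0829) and Ndufb2 (0.38, adjusted p = 0.132) were lost.

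The order of neurons and glia depended on the day for the second isoforms Cox6b2 and Ndufa4l2. At day 3 (6 against 7 libraries) Cox4i2, Cox6b2 and Ndufa4l2 were lower in each neuronal library than in each glial one, together with Ccdc17, Sdha and Sdhc, which is 6 of the 87 genes, where 28.7% of all genes were. In the higher direction there were 4 (Atp5a1, Atp5g1, Cyc1 and Ndufb8), where 26.7% of all genes were. At day 14 (7 against 8 libraries, 86 genes) Cox6b2 and Ndufa4l2 were on the other side, higher in each neuronal library, with Atp5g1, Atp5o and Ndufb5 (12.2% of all genes). Lower in each were Ndufa13, Ndufb10, Ndufs3, Sdha and Sdhb (9.94% of all genes). Sdha and Atp5g1 thus kept their side at both days.

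No gene of the 87 passed the threshold for genotype or partner in the cultures in the model without a replicate block. Calls of the model with that block are given with the processing alternatives below. With the 3 days averaged, 0 of 87 were called in each of 8 comparisons by limma, and voom also called 0. Beside mutant glia, mutant and wild-type neurons differed by a median of 0.09 over the 87 genes (21 negative), with 5 genes at an unadjusted p under 0.05, where 9.82% of all genes were, and 0.126% of all genes called. Beside wild-type glia the median was -0.14 (69 negative), with 2 genes at an unadjusted p under 0.05, where 7.06% of all genes were, and 0.0266% of all genes called. As each library was left out in turn the 2 medians ran from 0.02 to 0.14 and from -0.30 to -0.01. Wild-type neurons with mutant against wild-type glia had a median of -0.15 (74 negative) and mutant neurons one of 0.05 (29 negative), each with 2 genes at an unadjusted p under 0.05, where 1.155% and 0.657% of all genes were, and 0% of all genes called. The first median ran from -0.24 to -0.08 with 1 library left out. The second ran from -0.22 to 0.17, and the value of -0.22 came without the single day 7 library of mutant neurons with wild-type glia, so its sign rests on that library. Beside wild-type glia, day 3 neurons had only number 1 libraries and day 7 mutant neurons only a number 2 library. Beside mutant glia each day had both numbers. Number 1 exceeded number 2 in neurons by a median of 0.39 at day 3 and 0.15 at day 7. The part of this imbalance in the medians was not tested. Without the day 3 number 1 libraries the genotype median beside wild-type glia was -0.13. The partner medians were then -0.09 in wild-type and 0.17 in mutant neurons.

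In glia, mutant against wild type gave a median of -0.04 (53 negative) beside wild-type neurons, where 0.0274% of all genes were called, and 0.14 (6 negative) beside mutant neurons, where 0.0137% were. Wild-type glia with mutant against wild-type neurons gave -0.18 (73 negative) and mutant glia 0.00 (43 negative), where 0% of all genes were called. No gene of the 87 had an unadjusted p under 0.05 in these 4, where 0.178% to 2.05% of all genes did. With 1 library left out the 4 medians ran, in the same order, from -0.19 to 0.09, 0.03 to 0.28, -0.31 to -0.03 and -0.14 to 0.14. Wild-type glia with mutant neurons had only a number 2 library at day 3. With the replicate number as a block within each day the 2 medians that rest on that group became 0.04 (24 negative) and -0.06 (60 negative). These comparisons share libraries with one another.

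In spinal cord most respiratory chain genes had slightly lower values in the mutant at 12 and 17 weeks, none of which passed the test alone, while Cox6b2 rose at 17 weeks. At 12 weeks 80 of the 87 log2 differences were negative, with a median of -0.21 against -0.02 for all genes. That median was -0.07 without the mutant female and -0.30 without the mutant male. The test called 0 of 87, where 3.08% of all genes were called (limma, Benjamini-Hochberg), with 13 of the 87 at an unadjusted p under 0.05, where 15.4% of all genes were, and voom called 2 lower. At 17 weeks 72 were negative, with a median of -0.17 against -0.02, and 1 of 87 was called, where 11.7% of all genes were (8.76% higher), with 11 at an unadjusted p under 0.05, where 25.7% of all genes were. The 17-week median was -0.08 without the wild-type female and -0.31 without the wild-type male. In the same length classes, from short to long, the 17-week medians of all genes were -0.04, 0.01, -0.02 and -0.03. At 4 weeks the median was -0.09 and at 8 weeks 0.03, with 0 called at either age (0% and 0.0888% of all genes called, and 0 and 3 of the 87 called by voom). At an unadjusted p under 0.05 there were 11 and 24 of the 87, where 4.81% and 15.2% of all genes were. Over all ages the median was -0.15 (81 negative), and 1 gene was called, where 8.28% of all genes were (6.26% higher). Its range with 1 library left out was -0.17 to -0.10, and 24 of the 87 had an unadjusted p under 0.05, where 22.9% of all genes did. By voom 1 gene was lower at 17 weeks and 5 over all ages. No gene of the 87 separated the 8 mutant from the 8 wild-type libraries, as 0.0341% of all genes did in each direction.

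**Figure D5:**
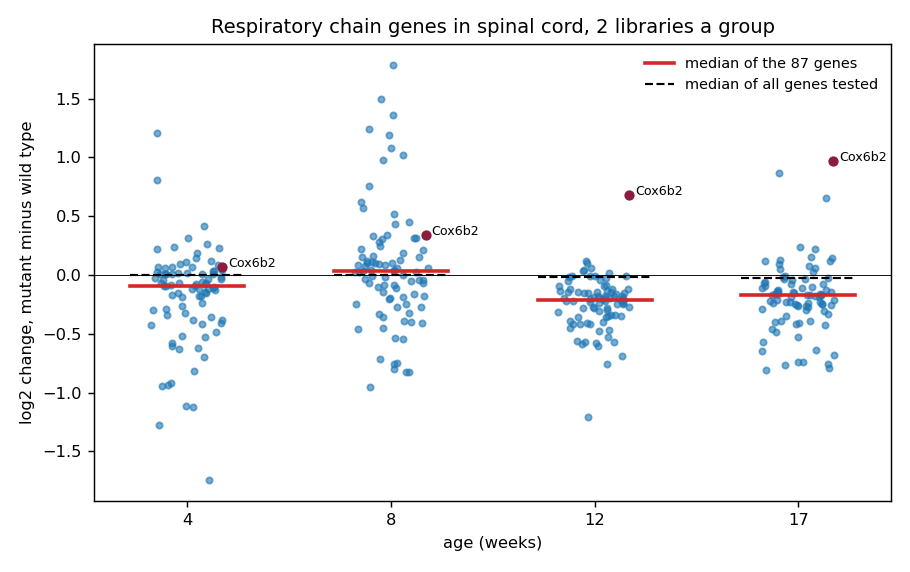
Log2 difference between mutant and wild-type spinal cord for each of the 87 genes at 4, 8, 12 and 17 weeks (blue points, Cox6b2 in dark red), with the median of the 87 as a red bar and that of all genes tested as a dashed line. The red bar is at -0.21 at 12 weeks and -0.17 at 17 weeks, and Cox6b2 reaches 0.97 at 17 weeks.

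Cox6b2 had values of 10.7 and 7.61 in the mutant female and male at 17 weeks, against 3.68 and 4.65 in wild type, so the pairs did not overlap. At 12 weeks it had 5.004 and 6.93 against 2.72 and 3.98, again apart. At 8 weeks it had 2.97 and 4.83 against 3.45 and 2.25, and at 4 weeks 3.27 and 3.88 against 3.46 and 3.26, where the genotypes overlap. The log2 difference at 17 weeks was 0.97 (SE 0.24, limma, Benjamini-Hochberg adjusted p = 0.0227) and over all ages 0.51 (SE 0.12, adjusted p = 0.0222). The 17-week call was lost without the mutant female (0.65, adjusted p = 0.213), without the wild-type female (0.87, adjusted p = 0.0984) and without the wild-type male (1.06, adjusted p = 0.06375), and voom gave 0.94 with an adjusted p of 0.101. The call over all ages was lost, at adjusted p-values of 0.0502 to 0.0671 in limma, when any of 6 libraries was left out: the 4-week mutant female or male, the 4-week wild-type male, the 8-week mutant or wild-type male, or the 12-week wild-type female. Voom gave 0.56 with an adjusted p of 0.0586. No gene of the 87 passed the test of a genotype difference that changed between 4 and 17 weeks, where 5.03% of all genes were called and 3 of the 87 had an unadjusted p under 0.05 (17.5% of all genes did). Voom called 0 there too. The median of the 87 for this contrast ran from -0.18 to 0.08 with 1 library left out.

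The lower values were spread over the complexes. At 12 weeks the median log2 difference was -0.27 for 29 complex I accessory subunits, -0.14 for 7 core subunits, -0.07 for complex II, -0.20 for complex III, -0.35 for the 11 common complex IV subunits and -0.21 for complex V. Cox5a had 123 and 140 in the mutant female and male and 188 and 164 in wild type, apart by genotype, a difference of -0.41 (adjusted p = 0.144 in limma). Atp5h, the d subunit of the ATP synthase stalk, had 21.4 and 30.3 against 38.7 and 37.5 (-0.56, adjusted p = 0.0862). Ndufa12, an accessory subunit of complex I, had 6.38 and 11.5 against 25.8 and 17.3 (-1.21, adjusted p = 0.0658). At 17 weeks Ndufv2, a core subunit of the NADH-binding module, had 52.6 and 52.9 against 61.2 and 69.9 (-0.30, adjusted p = 0.0661), and Cox5a had 132 and 126 against 167 and 144. Cox4i1 at 17 weeks had 263 and 234 against 344 and 250, and Atp5b had 222 and 223 against 248 and 242.

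The count of calls at 12 weeks depended on 1 library. The median over the 87 genes, relative to each gene's mean in the 16 libraries, was -0.27 in the mutant female and 0.02 in the mutant male at 12 weeks, and 0.05 and 0.12 in the wild-type pair. Without the mutant male, which leaves the female alone in its group, 9 of the 87 were called at 12 weeks. At 17 weeks the same measure was -0.18 and -0.12 in mutant and -0.04 and 0.06 in wild type, which do not overlap. At 4 weeks the median difference of the 87 ran from -0.14 to -0.01 with 1 library left out. The wild-type male of that age stood far above the other cord libraries for some genes. Cox8a was at 481 there and at most 227 elsewhere, and Atp5j2 at 154 and at most 63.0. For others it did not, as with Ndufs1 (40.8, and 40.6 in the female of its group). Over all ages Atp5h came next to the threshold (-0.28, adjusted p = 0.0505 in limma), and the number called ran from 0 to 10 as each library was left out in turn. It was 10 without the 12-week mutant male, 6 without the 4-week wild-type female, 5 without the 17-week wild-type female and 4 without the wild-type male of 12 or of 17 weeks. It was 3 without the 17-week mutant female, 2 without the 4-week wild-type male, and 0 without the 12-week wild-type female or the male that was mutant at 4 weeks, mutant at 8 weeks or wild type at 8 weeks.

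Cell type markers moved with genotype in the same cord libraries. The 14 microglial markers summed to 999 to 1062 in mutant and 170 to 175 in wild type at 17 weeks (13 higher), and to 457 to 523 and 177 to 188 at 12 weeks (11 higher). The 12 neuronal markers summed to 1480 to 1507 and 2126 to 2246 at 17 weeks (5 lower), and to 1989 to 2260 and 2613 to 3005 at 12 weeks (1 lower). Astrocyte markers summed to 3324 to 3465 and 1908 to 2004 at 17 weeks (6 of 12 higher). Their part in the values of the respiratory chain genes was not tested. Among related genes, Ucp2, a mitochondrial carrier abundant in immune cells, rose by 1.02 at 12 weeks and 1.27 at 17 weeks, Idh2 by 0.49 and 0.56, and Hk2, a hexokinase that can sit on mitochondria, by 0.67 and 1.06. At 17 weeks, beside the 8.76% of all genes that rose, 2 of 18 genes of the tricarboxylic acid cycle and pyruvate entry rose and none fell, 4 of 21 glycolytic genes rose and 2 fell, and 0 of 28 assembly factors outside the name rule were called.

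Age in wild-type cord and sex changed none of the 87 genes past the threshold. Wild type at 17 against 4 weeks had a median of -0.10 with 7 genes at an unadjusted p under 0.05 (17.4% of all genes), where 2.87% of all genes were called, and males against females had a median of 0.03 with 2 such genes (3.89% of all genes), where 0.0615% were. Voom called 0 in both comparisons. The wild-type age median ran from -0.17 to 0.02 with 1 library left out. Without rescaling 5 genes were lower at 17 than at 4 weeks in wild type.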

How the data were processed

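Deposited RNA sequencing values of 16 spinal cord and 43 culture libraries were analysed. The deposited culture values are RPKM, and the deposited spinal cord values are reads per gene length and library total on the scale of RPKM, a unit not stated in full, and some genes had been reduced by whole reads before that scaling. The 898 cord entries below 0 in some library had those values set to 0. Bowtie and mm9 are named per the submitters' processing notes. Groups came from the labels, and 0 columns of values were without a sample.

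Values were divided by median-of-ratios factors and tested as log2(value + 1) with limma 3.58.1 (R 4.3.3) after a filter on low values (1 or more, 2 libraries or more), with Benjamini-Hochberg adjustment over all genes tested and a threshold of 0.05. A fold change on this scale understates the change of low genes. The cord model held genotype by age and sex, and the culture models held a mean for each pairing and day. A group with 1 library was assumed to vary like the others. Summaries and figures used Python 3.11.15, pandas 2.3.3, numpy 2.4.6 and matplotlib 3.10.9.

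The genes and lists were chosen with earlier results of these data known. Genes named in the text are 24 fixed members, up to 10 called members per comparison, and members next to the limit of the name rule, and a few others that illustrate a count were named after their values had been seen. Values of 1 gene by name are not reported here, though it stays in the counts and medians. The scripts were tested on simulated data. Whole reads were recovered for 100.0% of the 22784 culture entries above 0, and voom on recovered reads was added as a check after the data had been seen. Residuals of libraries with the same day and number correlated above 0.1 in 15 of 15 glial pairs (median 0.71) and in 6 of 7 neuronal pairs (lowest 0.07, median 0.56). Between libraries of other days the medians were 0.02 in glia and 0.10 in neurons. The numbers thus paired all glial and most neuronal libraries within a day. The numbers mean nothing in the labels. Alternatives were a pseudocount of 0.1, no filter, factors from the 75th percentile, no rescaling, no sex term, the replicate number as a block, voom, and leaving out single libraries, the day 3 number 1 libraries or the 17-week females.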

Additional observations from a re-analysis of the deposited data

Results flagged for a closer look

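The change from day 3 to day 14 differed between neurons and glia for 12 of the 87 respiratory chain genes by a test of the difference itself (an interaction term in limma over the 43 culture libraries, Benjamini-Hochberg adjusted p under 0.05), a comparison added after the data had been seen. Of all genes 53.5% were called, 26.7% in the higher and 26.8% in the lower direction, so these genes were called less often than genes at large. The model held no term for the replicate number, and the part of the split by number in this share was not tested. The neuronal minus the glial log2 change was 4.12 for Cox6b2, 4.48 for Ndufa4l2, 2.97 for Cox4i2, 2.05 for Cox7a1 and 1.31 for Ccdc17. It was negative for Atp5a1 (-0.51), Atp5g1 (-1.12), Ndufb8 (-0.62), Cyc1 (-0.51), Ndufa8 (-0.60), Ndufa5 (-1.35) and Ndufv1 (-0.36). Without the day 3 number 1 libraries 7 genes were called, of which 6 were among these 12. No group held 4 or more libraries, so no rule for single libraries far from their group was applied. The 4-week wild-type male of spinal cord stood far above the other cord libraries for some genes, as given above.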

How the results depend on the processing

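Counts are of the 87 genes called. Without rescaling they were 12 (for 32) between neurons and glia, 5 (for 12) for the difference between neurons and glia over days, and 5 (for 0) in wild-type cord from 4 to 17 weeks, and the day change of Sdha in neurons turned from 0.35 to -0.10. With the replicate number as a block within each day they were 52 between neurons and glia and 2 (for 0) for mutant against wild-type neurons with mutant glia, and the block changed no other count by more than 1.5 times. Without the day 3 number 1 libraries they were 16 (for 45) over days in neurons, 1 (for 2) in glia and 7 for the difference. Without the low-value filter they were 0 (for 1) in cord at 17 weeks and over all ages and 4 over days in glia. A pseudocount of 0.1 gave 1 at 8 weeks. Without a sex term they were 1, 2 and 4 at 8 weeks, 17 weeks and over all ages, and without the 17-week females 3 over all ages. Voom gave 3 at 8 weeks, 2 at 12 weeks, 5 over all ages and 5 over days in glia. Leaving out 1 library at a time gave 0 to 7 at 4 weeks, 0 to 9 at 12 weeks, 0 to 2 at 17 weeks, 0 to 10 over all ages, 0 to 4 for the genotype difference at 17 against 4 weeks, 0 to 8 for wild-type age and 2 to 5 over days in glia. The cause of these shifts was not tested. In all, 341 of 381 alternative counts stayed within 1.5 times the reported one. With 2 libraries in a cord group, and 1 library alone at day 3 for 2 neuronal pairings, small changes were not detectable. Low genes that may have near-identical copies stay uncertain.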

Other observations

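Between the cell kinds, lists related to the respiratory chain had different counts in the 2 directions, beside 39.9% of all genes higher and 38.6% lower. Of 18 genes of the tricarboxylic acid cycle and pyruvate entry 3 were higher and 10 lower in neurons than in glia, of 22 glycolytic genes 4 were higher and 12 lower, and of 8 mitochondrial antioxidant genes none was higher and 6 were lower, with a median log2 difference of -0.92. Of 47 mitochondrial ribosomal protein genes 15 were higher and 8 lower, both shares being below those of all genes, and of 42 cytosolic ones 24 were higher and 1 lower. In glia from day 3 to day 14, 3 of 18 tricarboxylic acid cycle genes and 4 of 14 electron carrier genes rose and none of either fell (3.8% of all genes rose and 8.21% fell), beside markers of oligodendrocytes (8 of 12 lower) and microglia (8 of 14 lower).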
